A study of Mus musculus with 17 samples.

Results

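The respiratory chain is described here through every array probe whose gene symbol begins with Nduf followed by a, b, c, s or v, is Sdha to Sdhd, or begins with Uqcr, Cox4 to Cox8 or Atp5. The choice used names only and no measured value. It gave 107 probes of 85 genes, of 25697 probes on the array with 16593 gene symbols. By name, 34 genes belong to complex I (44 probes), 3 to complex II (6 probes), 8 to complex III (9 probes), 18 to complex IV (21 probes) and 16 to complex V (18 probes). The remaining 6 genes (9 probes) match the name patterns without coding for a subunit. They are the complex I assembly factors Ndufaf1, Ndufaf3, Ndufaf4, Ndufaf5 and Ndufaf7, and the pseudogene Ndufs5-ps, and they are given apart. Ndufa4 is sorted with complex I by its name, although its protein is now known as a subunit of complex IV.

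The respiratory chain sits in the inner mitochondrial membrane. Complex I and complex II pass electrons from NADH and succinate to ubiquinone, complex III passes them on to cytochrome c, and complex IV (cytochrome c oxidase) passes them to oxygen. The proton gradient built on the way drives complex V, the ATP synthase, and several subunits of complexes IV and V come in isoforms that differ between tissues. Pluripotent cells are known for a greater reliance on glycolysis than most differentiated cells, and the balance of glycolysis and respiration shifts when somatic cells are reprogrammed.

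Total RNA of 17 mouse samples had been read on Illumina BeadArrays, with 1 array for each condition and no replicate. The series deals with Oct4, a transcription factor of pluripotent cells, at the start of reprogramming. Cells carrying a tetracycline-controlled Oct4 gene (TO) were embryonic fibroblasts (TO_MEF), neural stem cells (TO_NSC) and bone marrow cells (TO_BMC), each at 0, 6, 12 and 24 h. Wild-type fibroblasts (Ctrl_MEF) and wild-type neural stem cells (Ctrl_NSC) had been read untreated and after 24 h of treatment, and embryonic stem cells (ESC) untreated. The labels give neither strain, age, number of animals nor the compound used for treatment, and bone marrow cells have no wild-type arrays. The 0 h arrays of the TO lines are labelled as treated, and for Ctrl_MEF at 24 h one label reads 14 while the title reads 24. The title was followed.

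Levels are log2 values after background correction and quantile normalization, so 1 unit is a 2-fold difference, and levels of different probes are not compared with each other. A probe counted as detected on an array when its deposited detection p-value was under 0.01. Of the 107 probes, 95 (79 genes) were detected on at least 1 array and were tested, 84 of them on all 17 arrays. The other 12 probes were detected on none, and with them went 6 genes with no other probe, namely Ndufs1, Uqcrfs1, Uqcrq, Cox4i2, Cox7b2 and Atp5k. Sdha, the flavoprotein of complex II, and Ndufa4l2 are not analysed here.

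Markers of the labelled type were all detected on the MEF, NSC and ESC arrays, beside some of other types, and were mixed on the BMC arrays. All 6 fibroblast markers were detected on every MEF array, all 6 measured neural markers on every NSC array and all 7 stem cell markers on the ESC array. TO_NSC_0 also had 4 of 7 stem cell markers and Ctrl_NSC_0 had 2 of 7, and Sox2 is in both lists. The ESC array had 3 of 6 neural markers and TO_MEF_0 had 2 of 6. Ctrl_MEF_0 had 2 of 6 neural and 2 of 6 bone marrow markers. TO_BMC_0 had 5 of 6 bone marrow markers and also 4 of 6 fibroblast markers, TO_BMC_12 had 5 of 6 of each, and TO_BMC_24 had 3 of 6 of each. The TO_MEF arrays were the dimmest before normalization, with a mean intensity of 382 to 437 against 548 to 672 on the other arrays, and each array detected 10231 to 11082 probes.

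Promoters of nuclear genes for mitochondrial proteins are known for binding motifs of Nrf1, of Ets factors such as GABP, and of Yy1. RefSeq windows from 250 bases before to 50 bases after the transcription start (GRCm38.p6) were found for 70 of the 85 genes (75 windows). The letters GCATGCG (core of the Nrf1 motif) were present on either strand in 16 percent of these windows and in 4.44 percent of the windows of all coding genes. CCGGAAG (Ets) was in 22.7 against 11.6 percent, ATGGCGG (Yy1) in 16 against 5.24 percent, and CCAAT, the box bound by NF-Y, in 41.3 against 38.2 percent. The 4 windows below belong to the genes that passed the trend test in TO_NSC and hold the Nrf1 letters. Ndufaf4, Ndufaf5 and Sdhb fell there and Ndufa6 rose, so the same letters stood in the windows of genes that moved in opposite directions. In Ndufaf5 they lie after the start, and in Ndufaf4 on both sides of it. Capitals mark each match to the Nrf1, Ets or Yy1 letters on either strand, and overlapping matches run together.
Ndufaf4 chr4:24897833-24898132 (plus strand): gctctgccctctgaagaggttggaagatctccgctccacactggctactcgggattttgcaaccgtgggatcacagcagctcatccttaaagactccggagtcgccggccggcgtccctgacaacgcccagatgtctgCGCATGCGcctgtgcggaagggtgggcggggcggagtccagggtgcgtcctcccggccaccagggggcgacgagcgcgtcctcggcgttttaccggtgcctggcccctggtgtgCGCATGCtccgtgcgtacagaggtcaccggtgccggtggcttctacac
Ndufaf5 chr2:140170396-140170695 (plus strand): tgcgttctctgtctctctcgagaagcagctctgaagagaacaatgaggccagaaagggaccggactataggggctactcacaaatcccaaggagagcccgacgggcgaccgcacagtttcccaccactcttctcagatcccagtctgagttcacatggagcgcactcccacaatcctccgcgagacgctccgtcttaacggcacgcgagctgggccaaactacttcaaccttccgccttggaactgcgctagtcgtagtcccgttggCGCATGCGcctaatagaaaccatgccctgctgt
Sdhb chr4:140961021-140961320 (plus strand): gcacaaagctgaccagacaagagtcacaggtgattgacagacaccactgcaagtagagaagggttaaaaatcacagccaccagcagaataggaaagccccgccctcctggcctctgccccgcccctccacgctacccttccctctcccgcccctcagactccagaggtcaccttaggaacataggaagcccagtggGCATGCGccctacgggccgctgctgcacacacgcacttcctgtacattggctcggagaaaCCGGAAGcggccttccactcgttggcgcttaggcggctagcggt
Ndufa6 chr15:82354242-82354541 (minus strand): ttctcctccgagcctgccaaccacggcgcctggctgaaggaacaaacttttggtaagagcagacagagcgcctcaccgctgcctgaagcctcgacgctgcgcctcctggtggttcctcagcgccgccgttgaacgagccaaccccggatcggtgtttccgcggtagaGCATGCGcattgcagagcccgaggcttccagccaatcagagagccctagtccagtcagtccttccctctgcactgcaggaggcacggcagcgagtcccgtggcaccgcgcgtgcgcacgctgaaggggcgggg
The windows of Ndufa4 and Ndufv3, which rose in TO_MEF, and of Atp5g1 and Ndufab1, which fell in TO_NSC, hold none of the Nrf1, Ets or Yy1 letters. A match is a description of the letters and no evidence of binding.

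At 0 h, respiratory chain transcripts were highest in neural stem cells. Of the 95 probes, 89 were higher in NSC than in MEF when the TO and wild-type arrays at 0 h were averaged, with a median difference of 0.65 against 0.06 over all 15543 tested probes. Each complex showed it, with medians of 0.72 for complex I (43 probes), 0.91 for complex II (4 probes), 0.80 for complex III (7 probes), 0.55 for complex IV (18 probes) and 0.55 for complex V (16 probes). The size depended on the line, with a median over all members of 0.46 between the wild-type arrays and 0.81 between the TO arrays. At least 2-fold higher in NSC were 9.47 percent of members between the wild-type arrays (15.4 percent of all probes). Between the TO arrays it was 29.5 percent (16.1 percent of all probes). Among the ESC array and the 5 somatic arrays at 0 h, an NSC array held the highest value for 73 of 95 probes, or 76.8 percent against 31.2 percent of all probes. ESC held it for 18, and MEF and BMC for 2 each. In bulk RNA of this kind fewer cells of a type and less RNA per cell cannot be told apart.

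The test of NSC against MEF at 0 h (limma, 2 arrays a side from different lines, Benjamini-Hochberg adjustment over all 15543 probes) called 8 member probes higher and 1 lower. That is 8.42 percent of members against a background of 9.38 percent of all probes called higher, and 1.05 against 10.1 percent called lower. The share called higher was thus near the background, while the median shift was not. Members were brighter than most probes, with 54 of 95 at 11 or above on Ctrl_MEF_0 against 1341 of 15543. No median over probes of like brightness was taken here or for the trends below. The error here is the difference between a TO line and a wild-type line, and leaving out 1 of the 4 arrays left 0 to 3 calls. With the wild-type 24 h arrays added, 55 of the 95 member probes were higher and 2 lower, against 21 and 18.2 percent of all probes in that fit. It counts the 2 arrays of a wild-type line as independent, so its error is understated and the larger count adds no support. The authors' log2 values gave 1 higher and 1 lower, an offset of 50 gave 16 and 0, and no background correction 28 and 0. Called higher under these settings were 7.98, 8.39 and 9.06 percent of all probes.

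The genes called higher in NSC included core subunits. Ndufs3, an iron-sulfur arm subunit, stood at 10.94 and 11.13 in TO_MEF_0 and Ctrl_MEF_0 and at 12.14 and 12.18 in TO_NSC_0 and Ctrl_NSC_0 (difference 1.12 ± 0.23 SE, limma adjusted p = 0.0318). Ndufs8, which carries iron-sulfur clusters on the way to ubiquinone, stood at 11.33 and 11.13 against 12.22 and 12.21 (0.99 ± 0.23, adjusted p = 0.0442). Sdhc, a membrane anchor of complex II, stood at 11.46 and 11.33 against 12.48 and 12.44 (1.06 ± 0.23, adjusted p = 0.0348). In each of these the NSC arrays lay above both MEF arrays by more than the 2 lines of a cell type differed. Ndufc2 (1.32 ± 0.23, adjusted p = 0.0211), Ndufa12 (1.32 ± 0.26, adjusted p = 0.0289) and Ndufa4 (1.13 ± 0.25, adjusted p = 0.0361) followed. One probe of Ndufaf5 (1.86 ± 0.30, adjusted p = 0.0166) was called and the other, at 9.12 and 8.70 in NSC against 8.27 and 7.82 in MEF, was not. One Ndufb11 probe, detected on 1 of the 2 MEF arrays, stood at 5.44 and 5.79 in MEF and 6.60 and 7.03 in NSC (1.20 ± 0.28, adjusted p = 0.0453).

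The gene called lower in NSC was Cox6a2, the heart and skeletal muscle isoform of cytochrome c oxidase subunit 6a. It stood at 6.32 and 5.56 in TO_MEF_0 and Ctrl_MEF_0, was not above background on any NSC array, and was at least 1.32-fold higher in MEF (adjusted p = 0.0398). Its highest levels were in bone marrow cells, at 8.08, 8.19, 7.99 and 7.27 from 0 to 24 h. The ubiquitous isoform Cox6a1 showed the opposite order, with TO_NSC_0 at 13.74 and Ctrl_NSC_0 at 13.71 above 13.19 and 13.22 in MEF and 13.22 in TO_BMC_0.

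**Figure D1:**
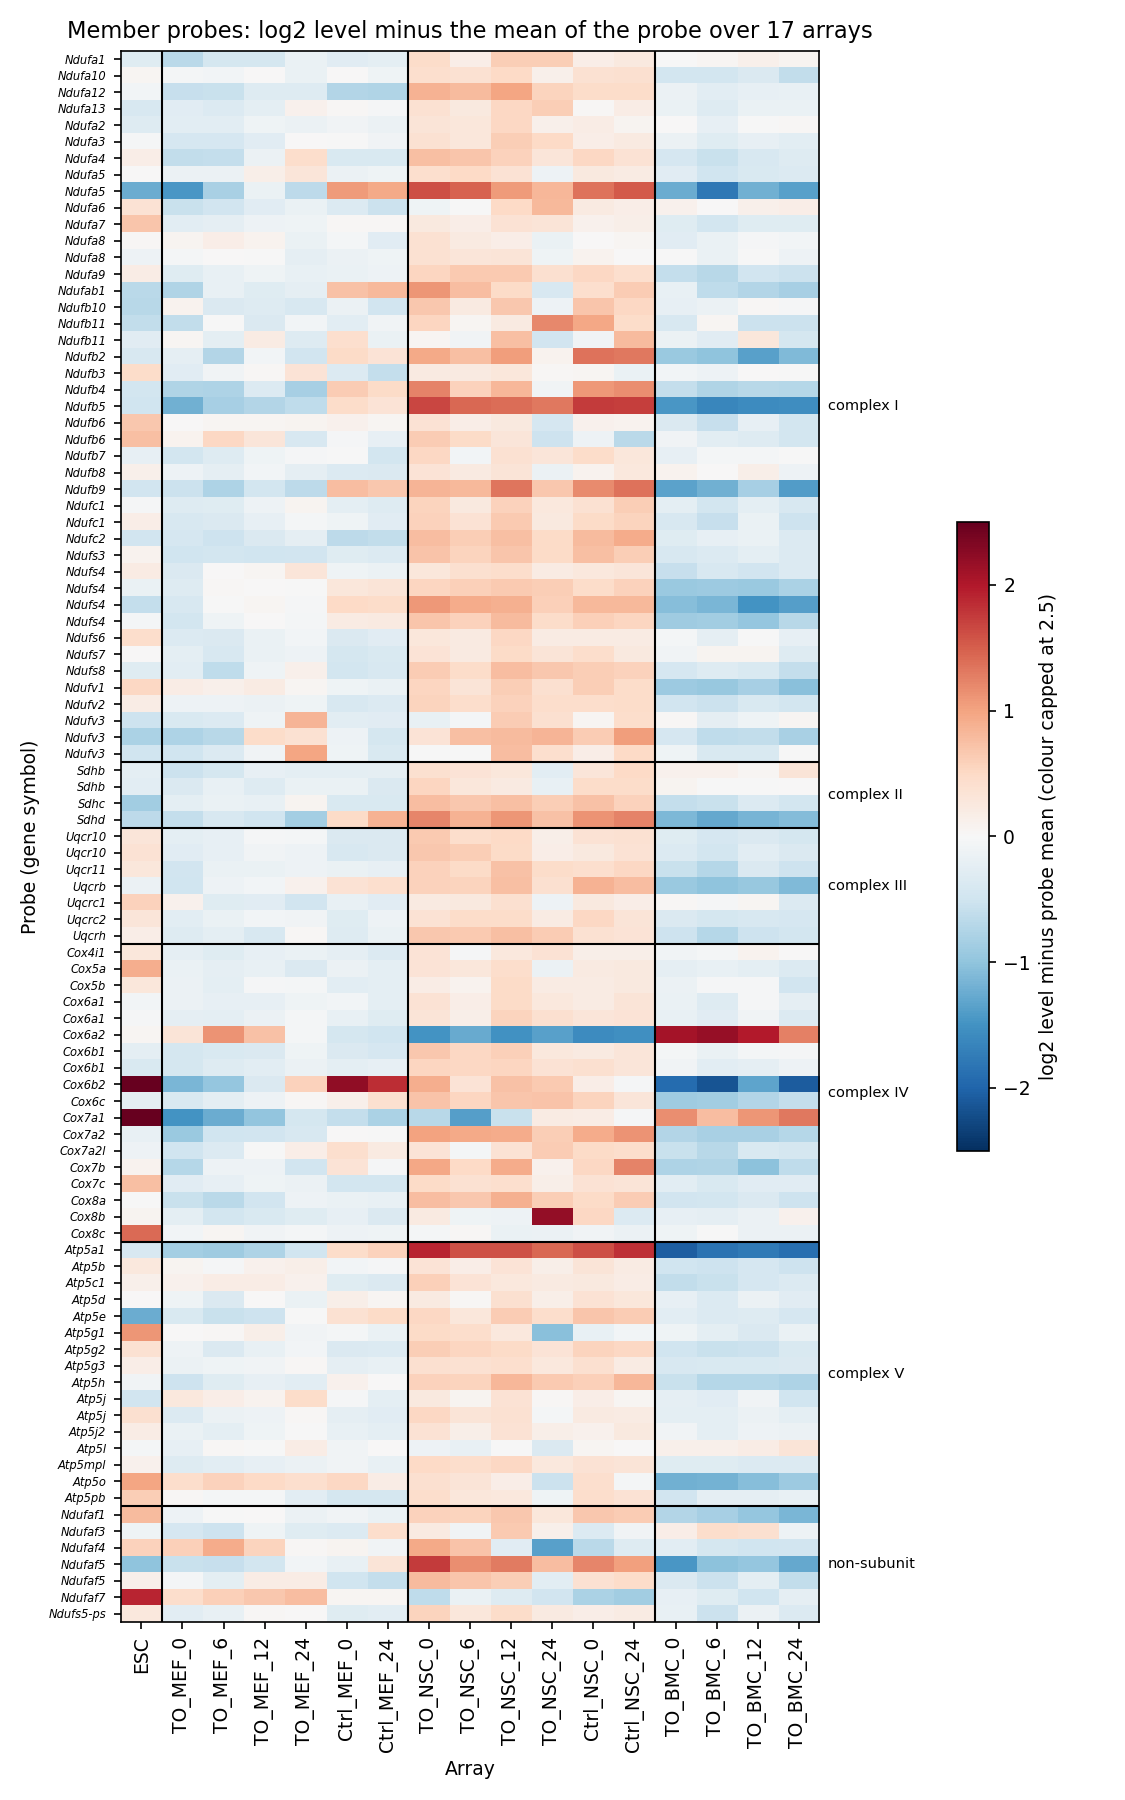
Log2 level minus the mean over 17 arrays for each of the 95 tested probes, in rows grouped by complex, on the arrays in columns. The 6 NSC columns are mostly above the probe mean and the BMC columns mostly below it. Cox6a2 and Cox7a1 run against this, with the BMC columns above the NSC columns.

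Several isoform genes differed widely between cell types. Cox7a1, the muscle isoform of subunit 7a, reached 9.78 in ESC against a median of 5.83 over the 16 somatic arrays. It was at 7.10 to 7.64 in TO_BMC and at 4.83 to 6.52 in MEF and NSC, while its counterpart Cox7a2 was at 8.34 in ESC, 7.61 in TO_MEF_0, 7.80 in TO_BMC_0 and 9.55 in TO_NSC_0. Cox6b2, known as the testis isoform of subunit 6b, stood at 9.29 in ESC, 8.95 and 8.58 in wild-type MEF, and 6.71 to 7.64 in NSC, and was not above background in TO_BMC. Cox8c, another testis isoform, was detected only on the ESC array (5.89), and Cox8b, a muscle isoform, only on TO_NSC_24 (6.97). Cox4i1 was detected on every array between 13.13 and 13.84, and Cox4i2 on none.

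In complex V, Atp5g1, Atp5g2 and Atp5g3 code for the same c subunit of the rotor. Atp5g1 was highest in ESC at 13.44, above 12.81 in TO_NSC_0, 12.33 in TO_MEF_0 and 12.23 in TO_BMC_0. Atp5g3 at 14.53 and Atp5g2 at 11.33 in ESC lay below TO_NSC_0 (14.78 and 11.56). Among the assembly factors Ndufaf7 was likewise highest in ESC, at 9.16 against 6.38 to 8.02 on the somatic arrays. With 1 ESC array these differences have no replicate check.

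**Figure D2:**
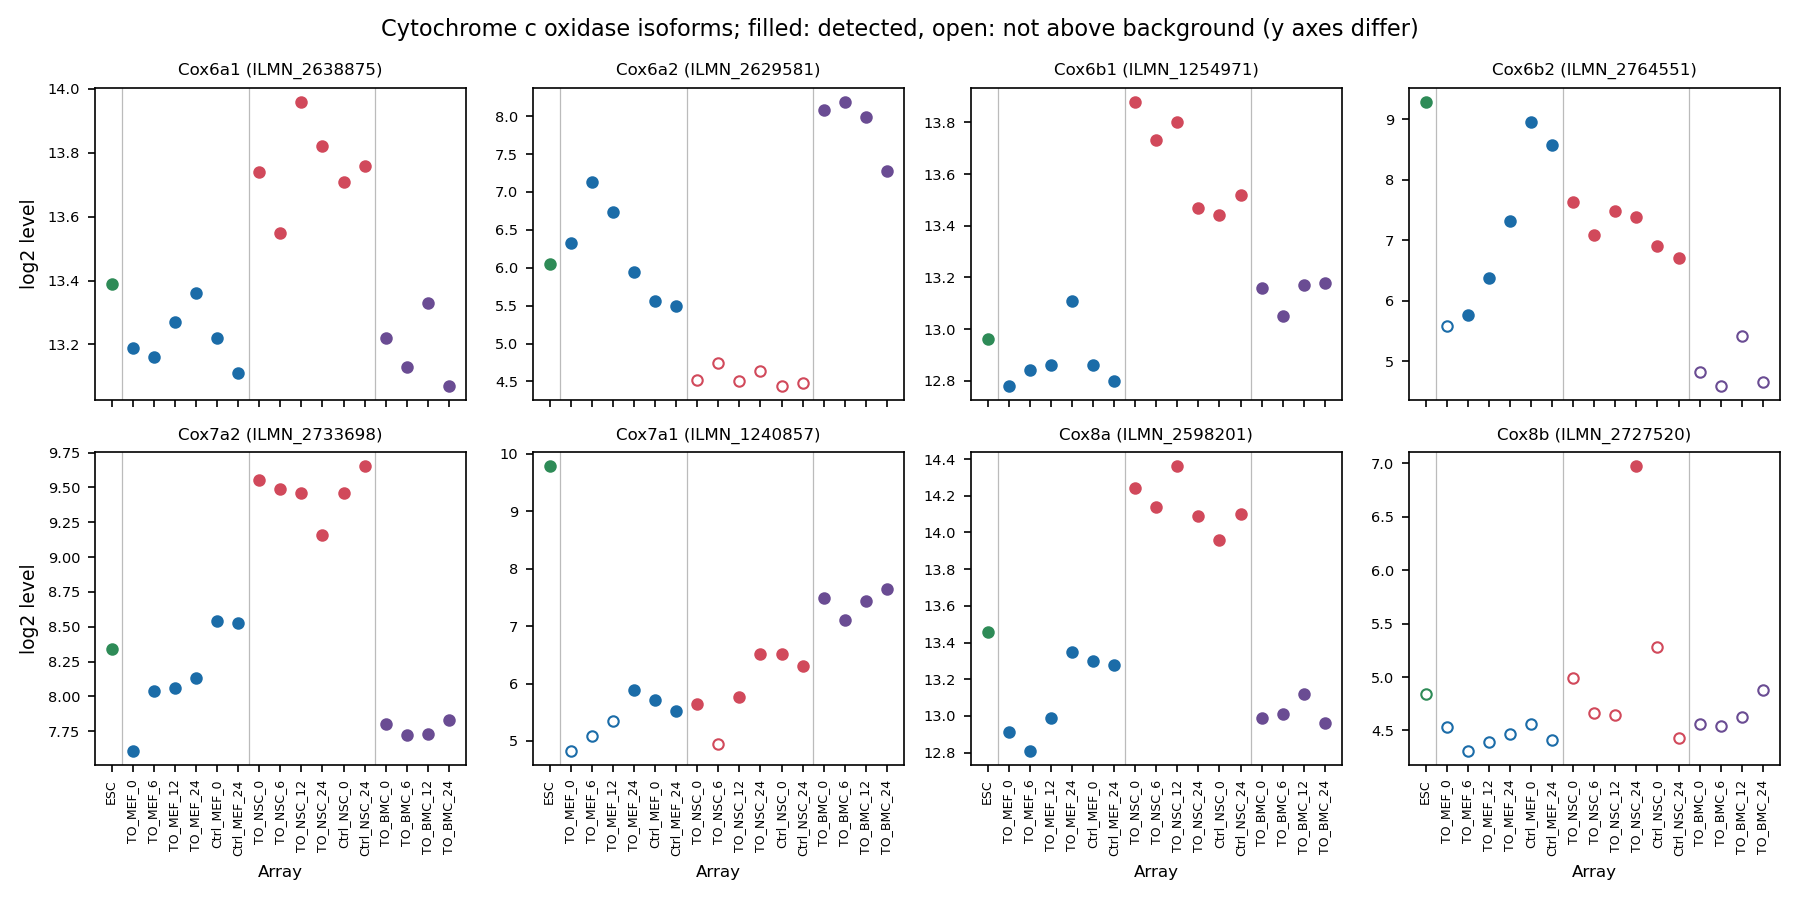
Log2 level on each of the 17 arrays for 4 pairs of cytochrome c oxidase isoforms, with filled points where the probe was detected and open points where it was not. Cox6a1 and Cox8a are highest in NSC, Cox6a2 is highest in BMC, Cox7a1 stands at 9.78 in ESC, and Cox8b is detected only on TO_NSC_24.

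The 2 fibroblast lines differed at 0 h, most in a small group of members. Over all members the median of TO_MEF_0 minus Ctrl_MEF_0 was -0.10, against 0.01 over all probes. Lower in TO_MEF_0 were 58 of 95 probes, or 61.1 percent against 49.4 percent of all probes. Oct4 (Pou5f1) was already at 8.44 in TO_MEF_0, against 5.02 in Ctrl_MEF_0 and 5.08 and 5.06 in TO_NSC_0 and TO_BMC_0, and its part in this difference was not tested. At 0 h 9 of 95 probes (9.47 percent) were at least 2-fold lower in TO_MEF_0 than in Ctrl_MEF_0, against 4.66 percent of all probes, and none was as much higher. They were Cox6b2 (5.59 against 8.95), one Ndufa5 probe (6.06 against 8.58), Ndufb5 (7.86 against 9.51), Ndufab1, Ndufb4, Ndufb9, Atp5a1, Sdhd and Cox7b. The second Ndufa5 probe read 11.79 and 11.78 in the same samples, so the 2 probes of that gene disagreed. Atp5a1, the alpha subunit of the catalytic head, stood at 9.13 in TO_MEF_0, 10.45 in Ctrl_MEF_0, 11.89 in TO_NSC_0 and 7.92 in TO_BMC_0, whereas the beta subunit Atp5b read 14.63, 14.50, 14.90 and 14.06. Of the 9 probes, 8 had a Ctrl_MEF_0 level from 7 to 11. In that class 25.8 percent of members and 6.86 percent of all probes were at least 2-fold lower in TO_MEF_0, and in the class at 11 or above 0 of 54 members were. The dimmer raw signal of the TO_MEF arrays moves with this difference, and its part in it was not tested.

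In induced fibroblasts a few members rose and none passed the test in the other direction. A straight line over 0, 6, 12 and 24 h was fitted per TO line (limma, 16 somatic arrays), and the value given is its fitted change over 24 h. Its error is the scatter of the arrays around these lines and between the wild-type arrays, not the spread between cultures. In TO_MEF 5 of 95 probes, of 3 genes, rose (5.26 percent against a background of 6.08 percent of all probes), and 0 fell (background 4.86 percent). At an unadjusted p under 0.05 there were 17 (17.9 percent against 25 percent of all probes). The shares called were no higher than the background, but the median change at 24 h was 0.21 against 0.00 over all probes, and 72 of 95 probes were higher than at 0 h against 49.6 percent of all probes. Wild-type MEF changed by a median of -0.04. The members of TO_MEF_0 had started at a median of -0.10 from Ctrl_MEF_0, and the part of this start in the rise was not tested.

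Ndufa4 read 12.58, 12.60, 13.04 and 13.63 at 0, 6, 12 and 24 h in TO_MEF and 12.81 on both wild-type MEF arrays. It rose by 1.13 ± 0.19 (SE, limma adjusted p = 0.0029), and only the 24 h and 12 h arrays were above wild type. Ndufv3, a small accessory subunit of the NADH-binding module, rose on all 3 of its probes. The brightest read 11.61, 11.65, 11.87 and 12.84, against 11.72 and 11.70 in wild type (1.29 ± 0.30, adjusted p = 0.0160). The next read 10.96, 11.12, 11.37 and 12.44, against 11.36 and 11.08 (1.52 ± 0.33, adjusted p = 0.0110). On both, most of the change came between 12 and 24 h. The dimmest was below background at 0 h and was at least 2.08-fold higher at 24 h (adjusted p = 0.0294).

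Cox6b2 read 5.59, 5.77, 6.38 and 7.32, not above background at 0 h, and was at least 3.11-fold higher at 24 h (fitted change 1.81 ± 0.36, adjusted p = 0.00732). Its 24 h level stayed below both wild-type MEF arrays. The core subunits of complex I had fitted changes of -0.01 for Ndufs3, 0.18 for Ndufs7, -0.11 for Ndufv1 and 0.03 for Ndufv2, and Ndufs8 had 0.55 (adjusted p = 0.175). None of these passed the test, nor did Sdhb, Sdhc, Sdhd, Uqcrc1, Uqcrc2, Atp5a1 or Atp5b. Without the 24 h array none of the 5 probes passed, and with a step at induction in place of a line 0 members passed. With the wild-type change subtracted 0 passed as well, while the fitted changes were as large or larger, at 1.13 for Ndufa4, 1.31, 1.60 and 1.80 for the Ndufv3 probes and 2.19 for Cox6b2 (adjusted p 0.0991 to 0.219).

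In induced neural stem cells more members fell than rose. Of 95 probes 11 fell (9 genes, 11.6 percent against 11.4 percent of all probes) and 3 rose (3.16 percent against 11.9 percent of all probes). The share that fell was at the background, so the calls alone do not set the members apart. The split was 2 up and 24 down without background correction (13.2 and 12 percent of all probes) and 1 up and 9 down on the authors' log2 values (8.54 and 9.58 percent). After 6, 12 and 24 h the median change was -0.11, 0.01 and -0.23 (0.02 over all probes on the last array), and 74 of 95 probes were lower at 24 h against 48.3 percent of all probes. At 24 h the medians were -0.23 for complex I, -0.58 for complex II, -0.17 for complex III, -0.09 for complex IV and -0.23 for complex V. Wild-type NSC changed by a median of 0.00, and 46 of 95 probes were higher and 49 lower there. The members of TO_NSC_0 had started above Ctrl_NSC_0 by a median of 0.11, against 0.01 over all probes. Of the 95 probes 69 were higher in TO_NSC_0 (72.6 percent against 51.1 percent of all probes). The part of this start in the fall was not tested.

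**Figure D3:**
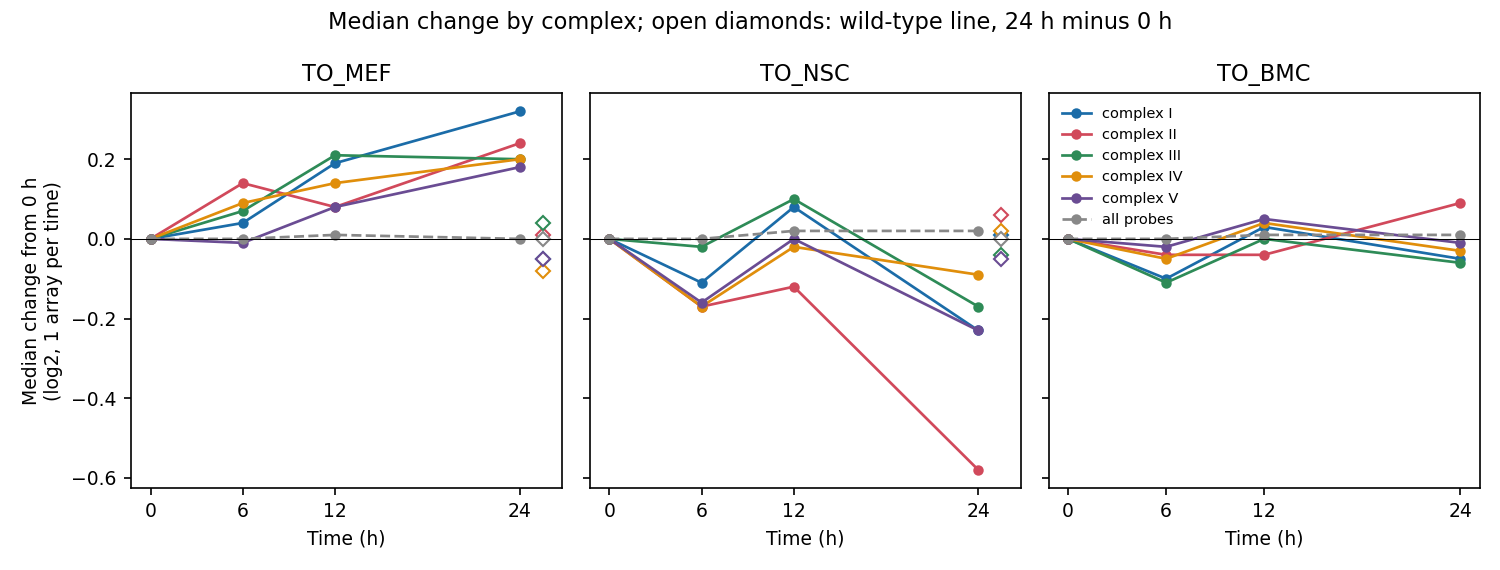
Median log2 change from 0 h of the probes of each complex against time in hours in the 3 induced lines, with the median of all probes dashed and open diamonds for the wild-type line at 24 h. By 24 h the medians reach 0.18 to 0.32 in TO_MEF, -0.09 to -0.58 in TO_NSC and -0.06 to 0.09 in TO_BMC.

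Complex II held the lowest median, over 4 probes of 3 genes. Sdhb, its iron-sulfur subunit, has 2 detected probes. One read 11.01, 10.76, 10.70 and 10.29 in TO_NSC against 10.94 on both wild-type arrays (-0.68 ± 0.19, limma adjusted p = 0.0203). The other read 10.45, 10.38, 10.33 and 9.77 against 10.34 and 10.54 (-0.69 ± 0.20, adjusted p = 0.0290). Both reached their lowest value at 24 h, below wild type. The anchors Sdhc (-0.13 ± 0.19, adjusted p = 0.701) and Sdhd (-0.40 ± 0.24, adjusted p = 0.288) did not pass the test.

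In complex I the members that fell were accessory subunits. Ndufab1, the mitochondrial acyl carrier protein, read 7.04, 6.71, 6.42 and 5.54 against 6.35 and 6.57 in wild type (-1.49 ± 0.25, adjusted p = 0.00123). Ndufb4, of the membrane arm, read 7.82, 7.15, 7.41 and 6.49 against 7.67 and 7.74 (-1.19 ± 0.28, adjusted p = 0.00895). Ndufb6, of the same arm, fell on both probes, by 0.75 ± 0.22 (adjusted p = 0.0254) and by 1.16 ± 0.31 (adjusted p = 0.0169). The wild-type arrays of the second Ndufb6 probe also differed, at 7.41 and 6.87. Against these, Ndufa6, an accessory subunit of the matrix arm, rose from 11.98 through 12.09 and 12.59 to 12.91 with wild type at 12.32 and 12.26 (0.99 ± 0.19, adjusted p = 0.00352). The core subunits Ndufs3, Ndufs7, Ndufs8, Ndufv1 and Ndufv2 had fitted changes between -0.17 and 0.11 and did not pass the test.

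None of the 7 complex III probes matched by name passed the test, and all 7 were lower at 24 h, and Uqcrc1 and Uqcrc2 had fitted changes of -0.35 ± 0.23 and -0.19 ± 0.20. Complex IV gave 2 rises, both of muscle isoforms near background. Cox7a1 read 5.64, 4.94, 5.77 and 6.52, and Ctrl_NSC_0 stood at 6.51 without induction (1.16 ± 0.36, adjusted p = 0.0325). Cox8b read 4.99, 4.66, 4.64 and 6.97 and was detected only at 24 h, at least 2.66-fold higher than at 0 h (adjusted p = 0.0121), so its call rests on 1 array. Without that array the fitted change of Cox8b was -0.70.

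In complex V, Atp5g1 read 12.81, 12.76, 12.60 and 11.29 against 12.15 and 12.26 in wild type (-1.56 ± 0.26, adjusted p = 0.00142). The fall came between 12 and 24 h, and the other c subunit genes changed less, with Atp5g2 at 11.56 and 11.29 and Atp5g3 at 14.78 and 14.63 at 0 and 24 h. Atp5o, the stalk subunit OSCP, read 8.91, 8.83, 8.69 and 7.97, with wild type at 8.93 and 8.46 (-0.97 ± 0.25, adjusted p = 0.0133). Atp5pb, subunit b of the same stalk, fell least, by 0.54 ± 0.18 (adjusted p = 0.0485). Of the assembly factors Ndufaf4 fell most of all members, from 10.47 through 10.23 and 9.23 to 8.17 (-2.43 ± 0.27, adjusted p = 0.000108). Its wild-type arrays read 8.85 and 9.20, so TO_NSC_0 started above wild type and TO_NSC_24 ended below it. One Ndufaf5 probe fell by 1.08 ± 0.24 (adjusted p = 0.00738).

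**Figure D4:**
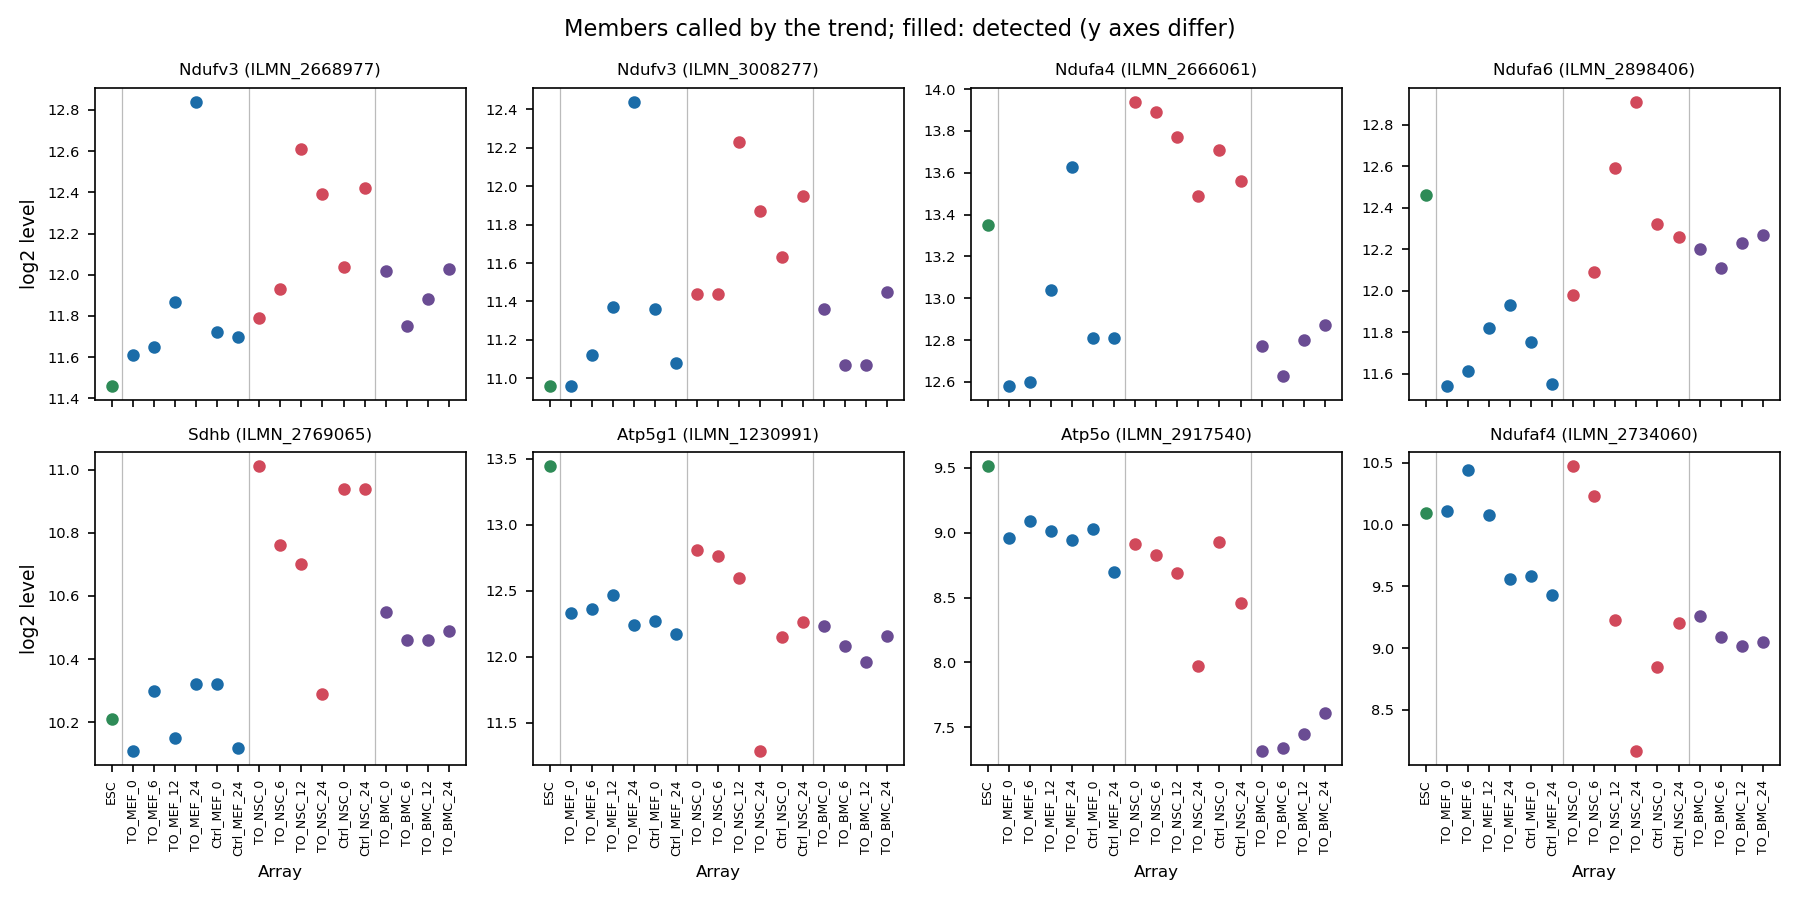
Log2 level on each of the 17 arrays for 8 probes that passed the trend test in TO_MEF or TO_NSC, filled where detected. Ndufv3 and Ndufa4 climb in TO_MEF to 12.84 and 13.63 (first Ndufv3 panel), and Sdhb, Atp5g1, Atp5o and Ndufaf4 reach their lowest NSC value on TO_NSC_24.

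Without the 24 h array, 1 of the 14 probes (Ndufaf4) still passed in TO_NSC, and with a step at induction 0 did. With the wild-type change subtracted, 4 passed, namely Ndufaf4, Ndufab1 and Atp5g1 downwards and Cox8b upwards. Of those that lost the call, Atp5o (-0.50) and the dimmer Ndufb6 probe (-0.61) lost most in fitted size, and Atp5pb (-0.48) and the brighter Ndufb6 probe (-0.72) little. Ndufb4 (-1.26), Ndufaf5 (-1.15), Ndufa6 (1.05), Cox7a1 (1.37) and both Sdhb probes (-0.88 and -0.69) were no smaller. Of the 11 probes that fell, 7 were higher and 4 lower in treated than in untreated wild-type NSC, in a range of -0.54 to 0.35. Markers of dividing cells fell in TO_NSC as well, on a different time course. They were already lower at 12 h, when the median change of the members was 0.01, and both medians were lowest at 24 h. All 5 detected of 6 listed (Mcm5, Cdk1, Top2a, Rrm2 and Cdt1) fell, their median level went from 10.47 at 0 h through 10.35 and 8.27 to 6.64 at 24 h, and their summed level from 53.4 to 32.4. In wild-type NSC that median was 10.49 untreated and 9.94 treated, and in TO_MEF it went from 10.17 to 10.06 over the 24 h. The part of cell division in the respiratory chain changes was not tested.

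In induced bone marrow cells 0 of 95 probes passed the trend test in limma, against 0.785 percent of all probes, and 3 had an unadjusted p under 0.05 (3.16 percent against 5.82 percent). The median change at 24 h was -0.05, and no member differed by 2-fold from 0 h at any time. The largest fitted falls were of Cox6a2 (-0.88 ± 0.36, adjusted p = 0.727), Ndufab1, Ndufaf1 (-0.42 ± 0.19), Cox5b (-0.37 ± 0.23) and Ndufaf3 (-0.37 ± 0.38). Ndufab1 was detected on TO_BMC_0 alone of the 4 arrays, so its size is not given. The largest fitted rises among detected probes were of Cox6c (0.31 ± 0.20), Atp5o (0.30 ± 0.25), Cox7a1 (0.28 ± 0.36) and Atp5c1 (0.28 ± 0.18), and Cox8b was not above background on any TO_BMC array. The summed level of the 6 bone marrow markers went from 55.4 to 44.4 over the same 24 h, mainly through Mpo (11.72 to 5.24) and Elane (10.31 to 5.48), while Lyz2 stood at 14.73 and 14.68. The summed level of the 6 fibroblast markers was 41.7 and 40.1, and the part of these markers in the result was not tested.

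The difference between the lines was tested as the trend in TO_NSC minus that in TO_MEF, on the same arrays as the trends themselves. It was negative for 87 of 95 probes, with a median of -0.38 against 0.00 over all probes. Complex II had the lowest median (-0.63) and complex IV the highest (-0.26). At 0 h the members stood at a median of -0.10 from wild type in TO_MEF and of 0.11 in TO_NSC. The part of these starts in the difference was not tested. The test called 8 probes lower (8.42 percent against 5.83 percent of all probes) and 0 higher (background 5.13 percent), and 26 had an unadjusted p under 0.05 (27.4 percent against 26 percent of all probes). Among the probes detected on all arrays of both lines, Ndufaf4 (-1.75 ± 0.39, adjusted p = 0.0126) and Ndufa4 (-1.60 ± 0.27, adjusted p = 0.0034) differed most. Ndufab1 (adjusted p = 0.0047) and Cox6b2 (adjusted p = 0.0334) were also called, but neither was above background on TO_MEF_0. Their differences ran from -2.63 to -0.82 and from -2.37 to -0.95 over the alternatives. Atp5g1, one probe each of Ndufaf5, Ndufa5 and Sdhb made up the rest. Ndufa4 moved in opposite directions, with a fitted 1.13 in TO_MEF and -0.47 in TO_NSC, the latter not called (adjusted p = 0.107). TO_MEF and TO_NSC stood at 12.58 and 13.94 for this gene at 0 h and at 13.63 and 13.49 at 24 h. With a step in place of a line 0 probes passed, and without TO_NSC_24 also 0. With the wild-type changes subtracted 0 of the 8 passed (adjusted p 0.0945 to 0.324), although the differences were of similar size, such as -2.25 for Ndufaf4, -1.69 for Atp5g1 and -1.45 for Ndufa4.

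**Figure D5:**
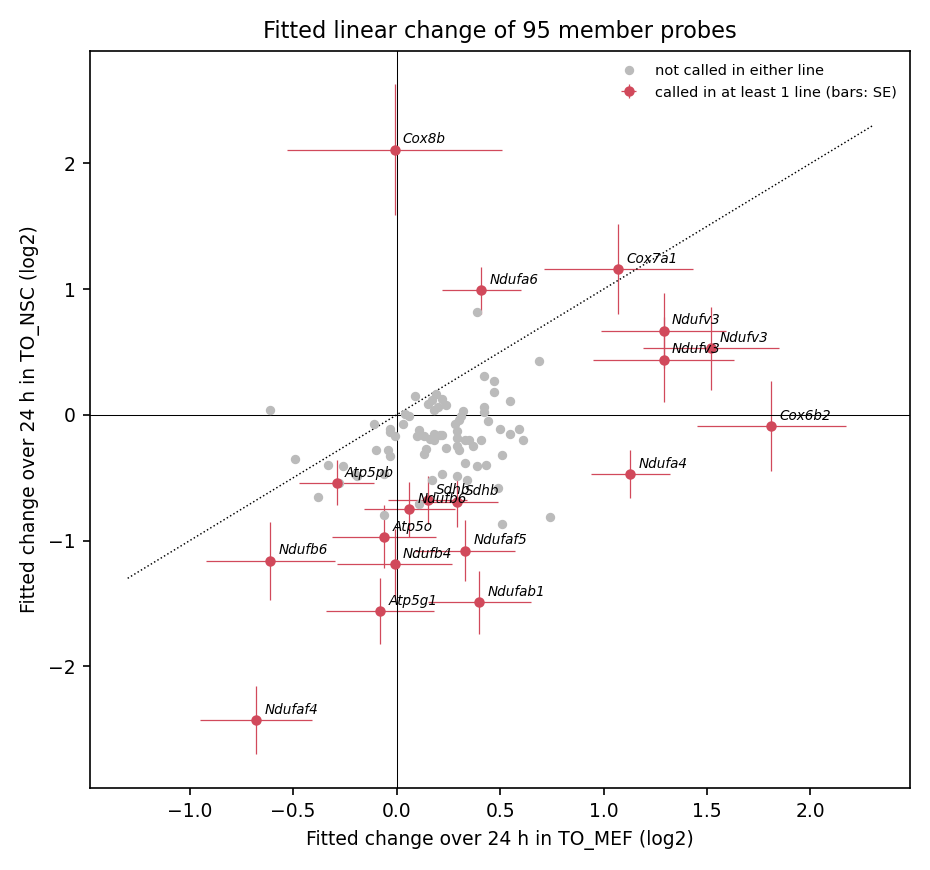
Fitted log2 change over 24 h in TO_NSC (vertical) against that in TO_MEF (horizontal) for 95 member probes, with SE bars on those called in at least 1 of the lines and a dotted line of equal change. 87 probes lie below the dotted line.

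Genes that work with the chain were read from lists, whose counts stand beside the shares of all probes called (6.08 percent higher and 4.86 percent lower in TO_MEF, 11.9 and 11.4 percent in TO_NSC). Of 7 detected genes for electron carriers and adenine nucleotide exchange (9 listed), Etfdh, which feeds electrons from fat oxidation into ubiquinone, rose in TO_MEF (1.06 ± 0.27, adjusted p = 0.0267). In TO_NSC Cycs, cytochrome c, fell by 1.46 ± 0.43 (adjusted p = 0.0270) and Cyc1, the cytochrome of complex III that the name patterns do not take, by 0.68 ± 0.20 (adjusted p = 0.0264). Of 27 detected assembly factors outside the members (35 listed), 3 rose in TO_MEF (Cox19, Cox20 and Tmem126b) and 0 fell, while 5 fell in TO_NSC (Bcs1l, Cox10, Cox18, Ecsit and Foxred1) and 0 rose. Cox20 differed between the lines by -1.56 ± 0.30 (limma adjusted p = 0.00671). It read 8.50 on TO_MEF_0 and 9.71 on TO_MEF_24, with wild-type MEF at 9.97 and 9.85.

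Of 11 detected citric acid cycle genes (13 listed), 0 passed in TO_MEF and 4 fell in TO_NSC. Suclg2, of succinyl-CoA ligase, read 10.76, 10.43, 9.86 and 8.85 against 9.85 and 9.55 in wild type (-1.96 ± 0.22, limma adjusted p = 9.81e-05). Fh1, fumarate hydratase, read 11.73, 11.59, 11.18 and 10.43 against 10.94 and 10.76 (-1.35 ± 0.20, adjusted p = 0.000699). Both started above wild type on TO_NSC_0 and ended below it on TO_NSC_24, and the part of this start in the fall was not tested. Cs and Mdh2 also fell, from 12.07 to 11.48 and from 11.23 to 10.48. Wild type read 12.07 and 11.84 for Cs, and 10.71 and 10.66 for Mdh2. Suclg2 and Fh1 act in the cycle just before and just after complex II. Of 11 detected regulators of mitochondrial genes (13 listed), Nrf1 fell in TO_MEF by 0.76 ± 0.21 (limma adjusted p = 0.0333), and 0 passed in TO_NSC. Nrf1 read 9.21 on TO_MEF_0 and 8.40 on TO_MEF_24, with wild-type MEF at 8.62 and 8.59. No gene of these 4 lists passed in TO_BMC. For the genes of these lists no result under the alternatives is given.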

How the data were processed

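The authors deposited a linear intensity for every probe on each array, not normalized, with its detection p-value, and a series matrix of log2 values. BeadStudio 3.2, RMA and lumi are named per the submitters' processing notes, and their order and settings are not given in the sources used here. The medians of the deposited log2 columns were 3.76 to 3.77. The symbols of all 107 member probes were unchanged in the mouse gene table.

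The intensities were background-corrected (normexp, using the detection p-values, with 16 added), quantile-normalized over 17 arrays and put on the log2 scale in limma 3.58.1 (R 4.3.3). A probe was kept if its detection p was below 0.01 somewhere, which left 15543. The trend fit used 16 somatic arrays with 5 line intercepts and a slope per TO line (8 residual and 4.61 prior degrees of freedom). The 0 h level fit had 2 residual and 2.98 prior degrees of freedom. Benjamini-Hochberg adjustment ran over all 15543 probes, with 0.05 as threshold. Where a probe was undetected in the lower group, its level there was taken as the lowest signal of any detected probe or its own, whichever was higher, and the fold is a lower bound. The number of arrays limits the precision. P-values measure the spread between these arrays, since no label gives separate cultures. In simulated data of this layout with 15543 probes, changes of log2 size 1, 2 and 3 in TO_NSC were found in 26.9, 79.1 and 97.0 percent of cases, with 3 false calls. These changes were straight lines over time in 66 or 67 probes per size, with independent noise for each probe. No deviation shared by the probes of 1 array was simulated, so these rates do not cover that source of error.

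Named are the members called in a comparison (up to 10 per direction), otherwise the 5 largest falls and rises per line, the Sdh genes, core subunits and isoform sets, and members ranging over more than 2 log2 units. Members and lists were chosen with earlier results of these data known. Alternatives tried were an offset of 50, no background correction, the authors' log2 values, no detection filter, 1 probe per gene, a step at induction, the wild-type trend subtracted, added wild-type 24 h arrays and leaving out each array.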

Additional observations from a re-analysis of the deposited data

Results flagged for a closer look

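The trends of 8 member probes differed between TO_NSC and TO_MEF when the difference itself was tested (limma, Benjamini-Hochberg adjusted over all probes), and each was lower in TO_NSC. The differences in fitted log2 change over 24 h were -1.90 ± 0.35 for Ndufab1, -1.89 ± 0.52 for Cox6b2, -1.75 ± 0.39 for Ndufaf4 and -1.60 ± 0.27 for Ndufa4. Ndufab1 and Cox6b2 were not above background on TO_MEF_0, so the size of their differences depends on the scaling. They were -1.48 ± 0.37 for Atp5g1 (adjusted p = 0.0239), -1.41 ± 0.34 for the brighter Ndufaf5 probe (adjusted p = 0.0204), -1.07 ± 0.28 for the brighter Ndufa5 probe (adjusted p = 0.0290) and -0.98 ± 0.29 for the dimmer Sdhb probe (adjusted p = 0.0482). In TO_MEF at 0 and 24 h, Atp5g1 stood at 12.33 and 12.24, this Ndufaf5 probe at 8.27 and 8.50, the Ndufa5 probe at 11.79 and 12.23 and the Sdhb probe at 9.51 and 9.79. In TO_NSC they stood at 12.81 and 11.29, 9.12 and 8.06, 12.35 and 11.81, and 10.45 and 9.77.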

How the results depend on the processing

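The median 24 h changes of the members kept their sign under the scalings, with no filter and with 1 probe per gene, at 0.19 to 0.21 in TO_MEF, -0.23 to -0.20 in TO_NSC and -0.05 to -0.03 in TO_BMC. With members below background at their bound, an alternative chosen after seeing the data, they were 0.20, -0.22 and -0.03. Each scaling keeps the order of signals within an array, so the counts of members above and below 0 h were the same under each (72 and 23 in TO_MEF, 20 and 74 in TO_NSC), which adds no support. The counts of calls moved, and the cause was not tested. With an offset of 50, without background correction and on the authors' log2 values, the difference between TO_NSC and TO_MEF had 18, 22 and 5 calls, and the level comparison of NSC and MEF 16, 28 and 2. The trend had 8 calls in TO_MEF and 22 in TO_NSC with the offset of 50, and 9 and 26 without background correction. With 1 probe per gene TO_MEF had 3. The step at induction gave 0 calls in limma in TO_MEF, TO_NSC and their difference (5, 4 and 5 at an unadjusted p under 0.05). With the wild-type trend subtracted there were 0, 4 and 0 (9, 12 and 14 unadjusted). Added wild-type 24 h arrays gave 57 level calls, in a fit that counts arrays of the same line as independent. Leaving out 1 array gave 1 to 5 calls in TO_MEF, 1 to 17 in TO_NSC, 0 in TO_BMC, 0 to 10 for the difference and 0 to 3 for the level. TO_MEF had 1 without TO_MEF_24, and TO_NSC 1 without TO_NSC_24. The difference had 0 without TO_NSC_24, 2 without TO_MEF_24 and 3 without TO_MEF_0. The level had 0 without TO_MEF_0, 1 without TO_NSC_0, 2 without Ctrl_NSC_0 and 3 without Ctrl_MEF_0. Over named members and alternatives, 256 calls were kept, 156 lost and 1 turned, that of Cox8b in TO_NSC, which ranged from -0.70 (without TO_NSC_24) to 3.30 when 1 array was left out. No paired analysis was possible because each condition has 1 array and all carry replicate number 1. Probes near background, such as Cox8b, Cox7a1, Cox6b2 and Ndufab1, are limited by their signal.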
